A study of Flaveria angustifolia and Flaveria bidentis and Flaveria brownii with 21 samples.

Results

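Flaveria pubescens, a C3-C4 intermediate of the daisy family, was compared with F. angustifolia and F. sonorensis, the other C3-C4 species sequenced, within each leaf stage. F. pubescens contributed 2 libraries, 1 of juvenile and 1 of mature leaves, and the other C3-C4 species contributed 3, so 5 of the 21 samples of the series entered the direct comparison. These were F. pubescens juvenile, F. pubescens mature, F. angustifolia juvenile, F. angustifolia mature and F. sonorensis juvenile. The remaining 13 Flaveria libraries, of C3, C4-like and C4 species, were added to the fits for the spread, and 3 samples of out-group species were not analysed here. In the juvenile fit the difference between F. angustifolia and F. sonorensis also entered the spread. In the mature fit the spread came from the C3 and C4 libraries only. The fit over both stages drew on the C3-C4 libraries as well. All plants were raised in a greenhouse, and the labels used here name no line, treatment or plant age. Leaves of several plants were pooled for each library. Juvenile leaves were those that had most recently begun to expand on the main stem, and mature leaves were the newest to be fully expanded. Each species and stage had 1 library, so the p-values below measure the spread between species of a type, not between plants, and the lone F. pubescens library of a stage was assumed to vary like the others. The photosynthetic types are textbook knowledge and not labels. The series was collected, by its title, to build a phylogenetic tree of Flaveria, so the comparison of photosynthetic transcripts is a secondary use of it.

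In C4 photosynthesis, phosphoenolpyruvate (PEP) carboxylase fixes bicarbonate in the mesophyll, a C4 acid moves to the bundle sheath, and a decarboxylase such as NADP-malic enzyme releases CO2 there. The C3 acid that returns is converted back to PEP by pyruvate, phosphate dikinase (PPDK), and aminotransferases balance nitrogen between the cells. C3-C4 intermediates of Flaveria are known for a photorespiratory glycine shuttle, in which glycine is decarboxylated mainly in bundle sheath mitochondria so that its CO2 can be caught again, with a C4 cycle of varying extent added to it. F. pubescens is placed, as background, in the clade that also holds the C4-like F. brownii, whereas F. angustifolia and F. sonorensis are not.

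Read totals were 6195249 in F. pubescens juvenile and 7157729 in F. pubescens mature, against 5582658 in F. angustifolia juvenile, 7540912 in F. sonorensis juvenile and 6199006 in F. angustifolia mature. Levels are in RPM, the reads assigned to an Arabidopsis locus out of every 1e+06 assigned in a library, and differences are F. pubescens minus the other species on the log2(RPM + 1) scale. The added 1 RPM makes differences of low loci look smaller than they are. RPM is not corrected for transcript length, so levels are compared between libraries and not between genes. Where no read was seen, a level of up to 0.484 RPM (3 reads) in F. pubescens juvenile and 0.419 RPM in F. pubescens mature is still possible by counting error alone. This floor does not cover reads of a species that were not assigned to the matching Arabidopsis locus. Such differences in assignment between species were not tested, and they limit every locus that is near 0 in some species. The leaf markers RBCS1A, RCA, LHCB1.1 and LHCB3 were abundant in all 5 libraries, and their lowest value was 1865 RPM, for LHCB1.1 in F. pubescens juvenile. F. sonorensis juvenile stood apart in some clock transcripts and in heat shock transcripts, which were picked out after their values were seen. The 9 clock loci that passed the filter went both ways, with a median difference of −0.06 between F. pubescens juvenile and F. sonorensis juvenile, and the library stood apart in single members of that list. CCA1, a morning clock gene, was at 1.45 RPM in F. pubescens juvenile, 4.12 in F. angustifolia juvenile and 115.9 in F. sonorensis juvenile. PRR5, a later repressor of the clock, was at 13.6 RPM in F. pubescens juvenile, 9.67 in F. angustifolia juvenile and 0.133 in F. sonorensis juvenile. The 7 heat shock loci summed to 795 RPM in F. pubescens juvenile, 962 in F. angustifolia juvenile and 3657 in F. sonorensis juvenile. The part of these differences in the results was not tested, and counts of loci 2-fold apart are therefore also given without F. sonorensis. In bulk leaves, fewer cells of a type and less RNA per cell cannot be told apart.

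Across all loci, few differences exceeded the spread between species. In limma, 4 of 14479 loci (0.0276%) passed an adjusted p of 0.05 over both stages, 2 higher and 2 lower in F. pubescens (0.0138% in each direction). In juvenile leaves 1 of 14536 loci (0.00688%) passed, and in mature leaves 2 of 13909 (0.0144%), all of them lower in F. pubescens. No member of any gene list passed in these fits. At an unadjusted p under 0.05 the counts were 758, 861 and 788 loci, or 5.24%, 5.92% and 5.67% of those tested. A description by size is therefore given for the gene lists. A locus was counted as apart where F. pubescens was at least 2-fold higher, or lower, in every one of the 3 within-stage pairs. Of 14306 loci averaging 2 RPM or more, 594 (4.15%) were apart in this sense, 366 (2.56%) higher and 228 (1.59%) lower. With TMM scaling of the libraries the numbers were 291 higher and 263 lower, and without F. sonorensis they were 670 higher and 601 lower. F. pubescens was above the other species in all 3 pairs, at any size, for 25.0% of loci and below for 18.0%. The median difference over all loci in the juvenile fit was 0.14 as deposited and −0.03 with TMM.

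The loci that passed are named here although their values were seen first. The files do not name them, so they keep their Arabidopsis identifiers. AT3G26740 was at 0 RPM in F. pubescens juvenile and 0.279 RPM (2 reads) in F. pubescens mature, against 56.4 RPM in F. angustifolia juvenile, 57.0 in F. sonorensis juvenile and 455.2 in F. angustifolia mature. Both F. pubescens libraries lay below all others of their stage, whose lowest values were 12.6 RPM in juvenile and 62.7 RPM in mature leaves. Against the floor of 3 reads in F. pubescens juvenile, AT3G26740 was at least 117-fold lower in assigned reads than in F. angustifolia. The bound against F. sonorensis was at least 118-fold. It passed in limma over both stages (−6.86 ± 0.80, SE, adjusted p = 0.00110), in juvenile (−5.85 ± 0.56, adjusted p = 0.0123) and in mature leaves (−8.48 ± 0.76, adjusted p = 0.0159). The juvenile call was lost in limma without F. angustifolia (adjusted p = 0.0565) or F. sonorensis (adjusted p = 0.137), and the mature call without F. cronquistii, F. pringlei, F. kochiana or F. trinervia (adjusted p = 0.0688 to 0.0845). The call over both stages was kept in every setting tried.

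AT1G53625 went the other way. It was at 238 RPM in F. pubescens juvenile and 324 RPM in F. pubescens mature, against 14.0 RPM in F. angustifolia juvenile, 17.5 in F. sonorensis juvenile and 21.6 in F. angustifolia mature. No other Flaveria library exceeded 49.0 RPM, and the difference over both stages was 3.94 ± 0.51 (SE, limma adjusted p = 0.00232). AT2G01021, at 96.8 and 84.4 RPM in the F. pubescens libraries and between 0.896 and 1.59 RPM in the other C3-C4 libraries, also passed (5.47 ± 0.91, limma adjusted p = 0.0387). For this locus F. pubescens lay within the range of the C3, C4-like and C4 libraries, 24.5 to 383 RPM, and it was the other C3-C4 libraries that were low. Its call was lost in limma without F. angustifolia juvenile, F. sonorensis juvenile, F. pubescens juvenile or F. pubescens mature (adjusted p = 0.0611 to 0.114). The chloroplast locus ATCG00800 was at 329 RPM in F. pubescens juvenile and 182 RPM in F. pubescens mature, against 2783 in F. angustifolia juvenile, 2555 in F. sonorensis juvenile and 1181 in F. angustifolia mature (−2.84 ± 0.45, SE, limma adjusted p = 0.0274). Its F. pubescens values were likewise within the range of the other types. Its call was lost in limma without F. pubescens juvenile (adjusted p = 0.118), F. sonorensis juvenile (0.0669) or either F. angustifolia library (0.0592 juvenile, 0.0554 mature). AT2G23620 passed in mature leaves alone, at 0.140 RPM (1 read) in F. pubescens and 182 RPM in F. angustifolia (−7.33 ± 0.68, SE, limma adjusted p = 0.0159). Its ratio of F. angustifolia to F. pubescens was 1304, with an exact counting interval of 233.5 to 51535, and its call was lost without the same mature libraries as that of AT3G26740. Among loci outside the lists that were 2-fold apart in every pair, AT5G25120 (86.0 and 73.6 RPM in F. pubescens juvenile and mature, 0.133 to 3.71 RPM in the other C3-C4 libraries) and ATCG00040 (33.1 and 14.1 RPM in F. pubescens juvenile and mature, 207 to 3597 RPM in the other C3-C4 libraries) had the largest differences over both stages, each in its own direction, after AT2G01021 and AT3G26740, and neither passed.

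Most transcripts of the C4 cycle were higher in F. pubescens than in F. angustifolia in mature leaves, whereas in juvenile leaves the members went both ways. Of the 24 C4 cycle loci, 20 were above F. angustifolia in mature leaves, against 48.3% of all loci. In juvenile leaves 11 were above both other species and 10 below both, against 38.5% and 25.9% of all loci. With TMM 21 were above F. angustifolia in mature leaves, against 7462 of 14275 loci. With that scaling 10 were above both and 11 below both in juvenile leaves, against 4325 and 4732 of 14275 loci. Of the 24, 9 (37.5%) were at least 2-fold above F. angustifolia in mature leaves, against 12.7% of all loci. In juvenile leaves 4 (16.7%) were at least 2-fold above both other species, against 5.24% of all loci, and 3 (12.5%) were at least 2-fold below both, against 3.16%. The median difference of the list was 0.78 for the mature pair, against −0.03 over all loci. It was −0.03 against F. angustifolia and 0.28 against F. sonorensis in juvenile leaves, where the medians over all loci were 0.04 and 0.22. In limma no locus differed between the stages in its difference from F. angustifolia at an adjusted p of 0.05 (0 of 14500, 0%; 1429 at an unadjusted p under 0.05). The median of that stage difference over the C4 list was 1.13, against −0.10 over all loci. It was positive for 22 of the 24 members, against 45.1% of all loci. The shift was not confined to the C4 list. Positive members were 22 of 23 Calvin-Benson, 21 of 22 starch and sucrose, 7 of 7 sulfate assimilation and 13 of 15 chlorophyll synthesis loci. Photorespiration had 17 of 25 and the cell cycle list 4 of 19. All these counts stand against the same 45.1% of all loci. Reads may be split between members of a family, so list members are not independent. Only 4 of the 24 C4 cycle loci were 2-fold higher in every pair, against 2.56% of all loci. These were NADP-ME1, NADP-ME2, AlaAT1 and AlaAT2, described next. None was 2-fold lower, against 1.59% of all loci. Without F. sonorensis 7 were higher and none lower, against 670 and 601 of 14306 loci. Without the mature pair 4 were higher and 3 lower, which are the juvenile counts given above.

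NADP-malic enzyme, the C4 acid decarboxylase, was higher in F. pubescens in every pair. NADP-ME1 was at 552 RPM in F. pubescens juvenile, against 147 in F. angustifolia and 167 in F. sonorensis. In mature leaves it was at 2470 RPM in F. pubescens and 161 in F. angustifolia. NADP-ME2 was at 498 RPM in F. pubescens juvenile, against 146 in F. angustifolia and 137 in F. sonorensis, and at 1970 RPM in F. pubescens mature, against 193 in F. angustifolia. F. pubescens was the highest of the libraries compared at both stages for these loci. Over both stages the differences were 2.82 ± 0.76 for NADP-ME1 and 2.62 ± 0.72 for NADP-ME2 (SE, limma adjusted p = 0.420 and 0.430), so neither passed. Both passed in edgeR's quasi-likelihood test on the recovered reads (adjusted p = 0.0487 for each), a fit without the species block, and NADP-ME1 did so in limma without F. pubescens juvenile (3.99, adjusted p = 0.0391). NADP-ME4, the plastid isoform in Arabidopsis, had 318 RPM in F. pubescens juvenile, 180 in F. angustifolia and 122 in F. sonorensis, and 1678 RPM in F. pubescens mature against 387 in F. angustifolia. It was thus higher in every pair, but by less than 2-fold over F. angustifolia in juvenile leaves. Summed over 4 loci, because reads may be split between family members, NADP-malic enzyme was at 1465 and 6396 RPM in F. pubescens juvenile and mature, against 535 in F. angustifolia juvenile, 477 in F. sonorensis juvenile and 895 in F. angustifolia mature. NAD-ME2, a mitochondrial malic enzyme subunit, showed no such order, with 111 RPM in F. pubescens juvenile, 175 in F. angustifolia and 57.3 in F. sonorensis, and 99.3 RPM in F. pubescens mature against 241 in F. angustifolia.

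Alanine aminotransferase, which exchanges amino groups between alanine and pyruvate, was the other family apart in every pair. AlaAT1 was at 214 RPM in F. pubescens juvenile, 78.6 in F. angustifolia and 49.3 in F. sonorensis, and at 529 RPM in F. pubescens mature against 94.2 in F. angustifolia. AlaAT2 was at 311, 88.5 and 55.8 RPM in the juvenile libraries of F. pubescens, F. angustifolia and F. sonorensis, and at 674 RPM in F. pubescens mature against 119 in F. angustifolia. Differences over both stages were 2.13 ± 0.68 and 2.38 ± 0.71, and neither passed (SE, limma adjusted p = 0.600 and 0.523). Among aspartate aminotransferases, which link aspartate to oxaloacetate, ASP5 showed no such gap: it had 110 RPM in F. pubescens juvenile, 142 in F. angustifolia and 117 in F. sonorensis, and 264 RPM in F. pubescens mature against 134 in F. angustifolia.

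PEP carboxylase had opposite orders at the 2 stages. PPC1 was at 198 RPM in F. pubescens juvenile, against 423 in F. angustifolia and 426 in F. sonorensis, and at 1366 RPM in F. pubescens mature, against 736 in F. angustifolia. PPC2 and PPC3 had the same order, and the 3 loci summed to 422 RPM in F. pubescens juvenile, 924 in F. angustifolia juvenile and 979 in F. sonorensis juvenile, then 2918 in F. pubescens mature and 1561 in F. angustifolia mature. The PPC1 value of F. pubescens juvenile was below all 9 other juvenile libraries. For PPC1 the stage difference was 1.98 on the log2 scale, with an unadjusted p of 0.0126 in limma and an adjusted p of 0.417. The PEP carboxylase kinases, which phosphorylate and activate the enzyme, were low. PPCK1 was at 5.49 RPM in F. pubescens juvenile, 0.179 (1 read) in F. angustifolia and 5.83 in F. sonorensis, and at 34.9 RPM in F. pubescens mature against 1.61 in F. angustifolia. PPCK2 was at 6.30, 1.25 and 4.51 RPM in the juvenile libraries of the 3 species in that order, and at 50.4 RPM in F. pubescens mature against 5.65 in F. angustifolia. For the kinases F. sonorensis juvenile lay near F. pubescens and F. angustifolia below both.

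PPDK was at 581 RPM in F. pubescens juvenile, 130 in F. angustifolia and 328 in F. sonorensis, and at 3109 RPM in F. pubescens mature against 1015 in F. angustifolia. It was highest in F. pubescens at both stages, by less than 2-fold over F. sonorensis, and its difference over both stages was 1.67 ± 1.15 (SE, limma adjusted p = 0.996). RP1, the regulatory protein of PPDK, differed less, with 20.0, 16.1 and 13.1 RPM in the juvenile libraries of F. pubescens, F. angustifolia and F. sonorensis and 62.2 RPM in F. pubescens mature against 47.6 in F. angustifolia. NADP-MDH, which reduces oxaloacetate to malate, was lower in F. pubescens in every pair, at 307 RPM against 543 in F. angustifolia and 665 in F. sonorensis in juvenile leaves and at 624 RPM against 813 in F. angustifolia in mature leaves. Carbonic anhydrase, which supplies bicarbonate, summed over 4 loci to 4624 RPM in F. pubescens juvenile, 9069 in F. angustifolia and 12530 in F. sonorensis, and to 10413 RPM in F. pubescens mature against 9198 in F. angustifolia.

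**Figure D1:**
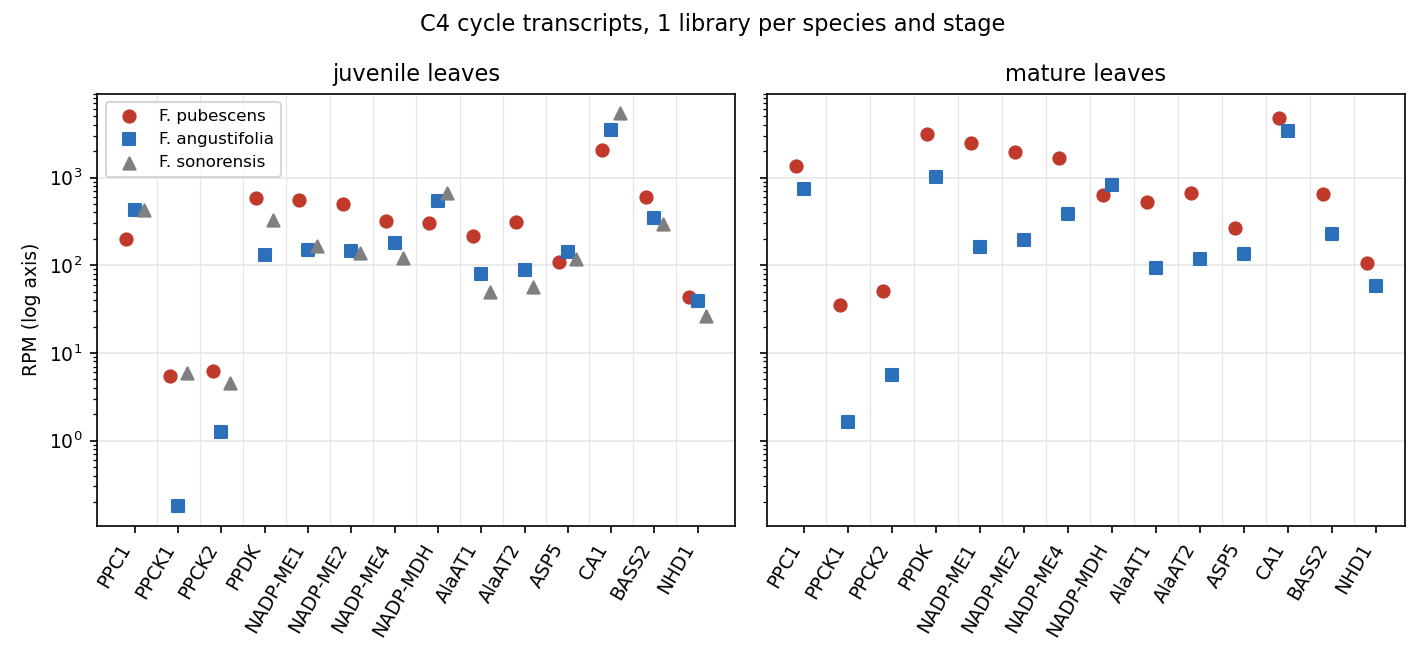
RPM (log axis) of 14 C4 cycle enzyme and transporter loci in juvenile leaves (left) and mature leaves (right), 1 point per library, with F. pubescens as circles, F. angustifolia as squares and F. sonorensis as triangles. NADP-ME1, NADP-ME2, AlaAT1 and AlaAT2 are highest in F. pubescens in both panels, whereas PPC1 is lowest there in juvenile leaves (198 RPM) and higher in mature leaves (1366 RPM).

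Of the 10 C4 metabolite transporters none was 2-fold apart in every pair, and 2 were higher and 2 lower in all pairs at any size, against 25.0% and 18.0% of all loci. BASS2, which brings pyruvate into the plastid together with sodium, was higher in all, at 608 RPM in F. pubescens juvenile, 344 in F. angustifolia and 299 in F. sonorensis, and at 641 RPM in F. pubescens mature against 226 in F. angustifolia. Its partner NHD1, a sodium and proton antiporter, was at 43.1, 39.6 and 26.5 RPM in the juvenile libraries of F. pubescens, F. angustifolia and F. sonorensis, and at 107 RPM in F. pubescens mature against 58.7 in F. angustifolia. DIC1, a mitochondrial dicarboxylate carrier, was lower in every pair, at 23.7 RPM in F. pubescens juvenile, 41.9 in F. angustifolia and 61.7 in F. sonorensis, and at 41.4 RPM in F. pubescens mature against 143 in F. angustifolia. DiT1, the plastid oxoglutarate and malate translocator, was at 337, 306 and 637 RPM in those juvenile libraries and at 385 RPM in F. pubescens mature against 129 in F. angustifolia.

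Set beside the other types, mature F. pubescens had NADP-malic enzyme sums above the C4-like F. brownii and PEP carboxylase sums near the C3 species. NADP-malic enzyme summed to 6396 RPM in F. pubescens mature, 4786 in F. brownii mature, 311 to 450 in the C3 libraries and 9166 to 20625 in the C4 libraries of that stage. Alanine aminotransferase summed to 1203 RPM in F. pubescens mature, 1376 in F. brownii mature, 117 to 314 in C3 and 2045 to 3785 in C4. PEP carboxylase summed to 2918 RPM in F. pubescens mature, against 6778 in F. brownii mature, 1628 to 2569 in C3 and 44062 to 53577 in C4. In juvenile leaves its sum was 422 RPM in F. pubescens and 720 to 1054 in C3. BASS2, at 641 RPM in F. pubescens mature, was at 775 in F. brownii mature, 198 to 205 in C3 and 4281 to 5140 in C4. These positions were read from single libraries and were not tested.

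**Figure D2:**
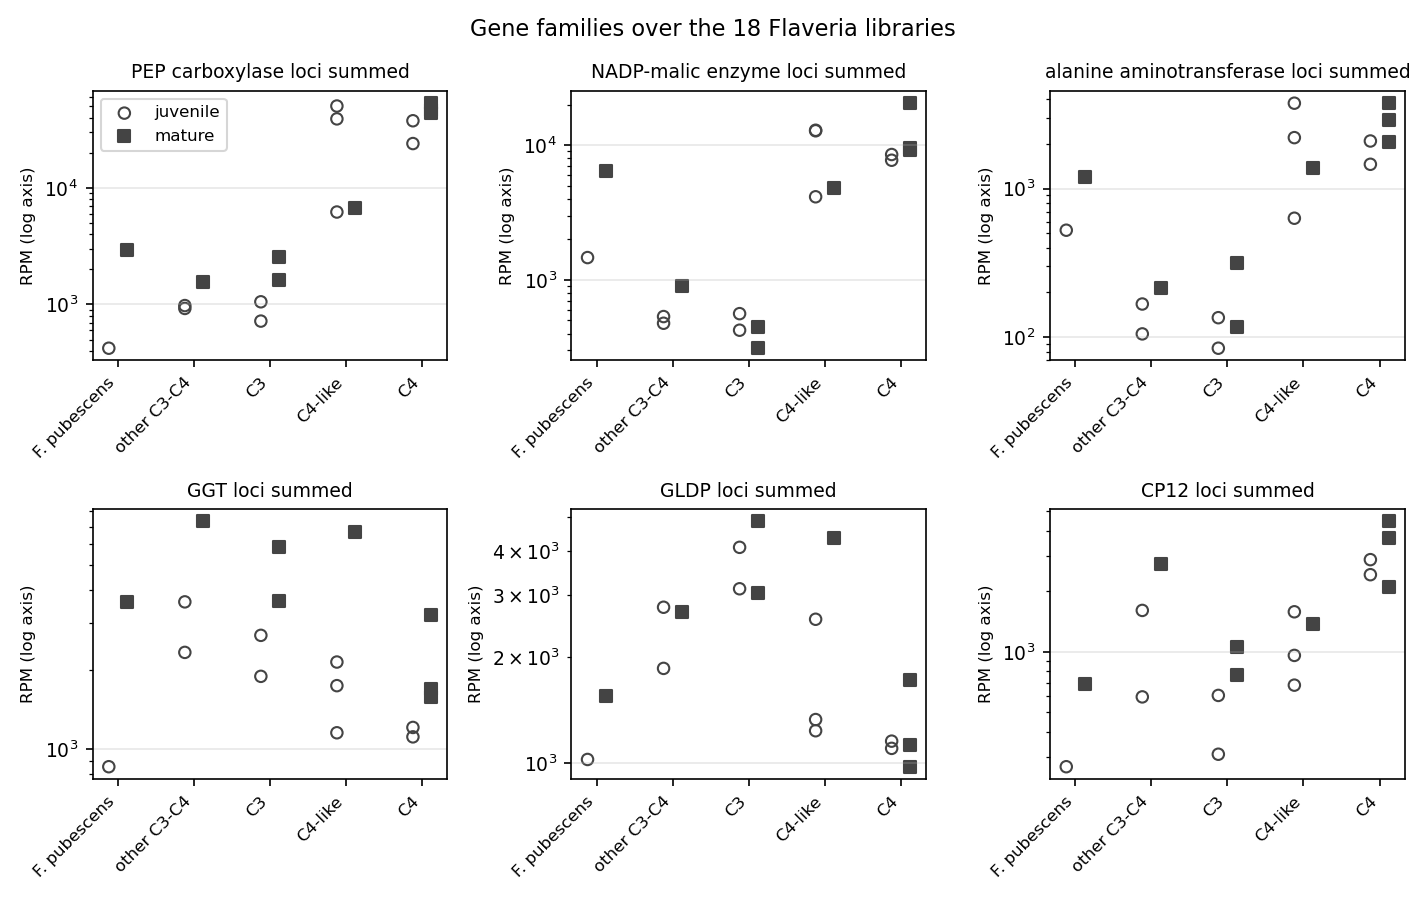
Summed RPM (log axis) of 6 gene families in the 18 Flaveria libraries, grouped as F. pubescens, the other C3-C4 species, C3, C4-like and C4, with open circles for juvenile and filled squares for mature libraries. F. pubescens lies near the C4-like libraries for NADP-malic enzyme and alanine aminotransferase in mature leaves, and at or below the lowest other juvenile libraries for PEP carboxylase, glutamate:glyoxylate aminotransferase (GGT), the P protein of glycine decarboxylase (GLDP) and CP12.

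Photorespiratory transcripts were lower in F. pubescens, and in juvenile leaves without exception among the loci listed. All 25 photorespiration loci were below both other species in juvenile leaves, against 25.9% of all loci. The count was also 25 with TMM, against 4732 of 14275 loci. In mature leaves 18 of 25 were below F. angustifolia, against 51.6% of all loci, and 17 with TMM, against 6802 of 14275 loci. Medians were −0.87 against F. angustifolia and −1.17 against F. sonorensis in juvenile leaves and −0.54 in mature leaves, or −0.91, −1.38 and −0.51 relative to all loci. Summed, the list came to 14692 RPM in F. pubescens juvenile, 26118 in F. angustifolia juvenile and 31457 in F. sonorensis juvenile, and to 31957 RPM in F. pubescens mature against 54820 in F. angustifolia mature. None was higher in every pair. Of the 25, 4 were 2-fold lower in every pair, against 1.59% of all loci. The number was also 4 without F. sonorensis, against 601 of 14306 loci.

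These 4 were GGT1, GLDH2, PMDH1 and PGLP1. GGT1, a peroxisomal aminotransferase that makes glycine from glyoxylate, was at 279 RPM in F. pubescens juvenile, 943 in F. angustifolia and 1291 in F. sonorensis, and at 1176 RPM in F. pubescens mature against 3006 in F. angustifolia. Its juvenile value in F. pubescens was below all 9 other juvenile libraries, while its mature value was within the range of the others. The difference over both stages was −1.66 ± 0.56 and did not pass (SE, limma adjusted p = 0.631). GLDH2, an H protein of glycine decarboxylase, was at 17.3 RPM in F. pubescens juvenile, 39.8 in F. angustifolia and 92.6 in F. sonorensis, and at 7.68 RPM in F. pubescens mature against 22.4 in F. angustifolia. PMDH1, a peroxisomal malate dehydrogenase, was at 279, 559 and 585 RPM in the juvenile libraries of F. pubescens, F. angustifolia and F. sonorensis, and at 833 RPM in F. pubescens mature against 1912 in F. angustifolia. PGLP1, the phosphoglycolate phosphatase that opens the pathway, was listed at 0 in both F. pubescens libraries and at 8.60 RPM in F. angustifolia juvenile, 2.65 in F. sonorensis juvenile and 7.90 in F. angustifolia mature. At the floor of 3 reads that is at least 17.8-fold, 5.48-fold and 18.9-fold lower. Libraries of other types were also at 0 for this locus, and no Flaveria library exceeded 8.60 RPM in juvenile or 7.90 RPM in mature leaves. Reads may be split between family members, so this low locus alone does not give the level of the enzyme. Where a mean of at least 10 RPM was required, 3 of 24 photorespiration loci were 2-fold lower in every pair.

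Further steps of the pathway had the same order. GOX1, a glycolate oxidase, was at 718 RPM in F. pubescens juvenile, 1349 in F. angustifolia and 1628 in F. sonorensis, and at 1888 RPM in F. pubescens mature against 4582 in F. angustifolia. CAT2, the catalase that removes the peroxide formed there, was at 1858, 3389 and 2100 RPM in those juvenile libraries and at 4586 RPM in F. pubescens mature against 11963 in F. angustifolia. The GLDP loci, which encode the P protein that decarboxylates glycine, summed to 1024 RPM in F. pubescens juvenile, 1856 in F. angustifolia and 2767 in F. sonorensis, and to 1552 RPM in F. pubescens mature against 2687 in F. angustifolia. Serine hydroxymethyltransferase, summed over SHM1 and SHM2, was at 1468, 3255 and 3940 RPM in those juvenile libraries and at 3075 RPM in F. pubescens mature against 4668 in F. angustifolia.

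The 7 loci that were higher in F. pubescens in mature leaves were GLDT, GLDH1, GLYK, GS2, GLU1, PLGG1 and BOU. The largest of these gaps was for PLGG1, the plastid glycolate and glycerate transporter, at 281 RPM in F. pubescens mature, a difference of 1.48 on the log2(RPM + 1) scale from F. angustifolia mature. GLYK, the glycerate kinase that closes the pathway, was at 131 RPM in F. pubescens mature and 52.9 in F. angustifolia mature. Both were lower in F. pubescens juvenile than in the other juvenile libraries, at 261 RPM against 292 and 369 for PLGG1 and at 130 RPM against 221 and 147 for GLYK.

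**Figure D3:**
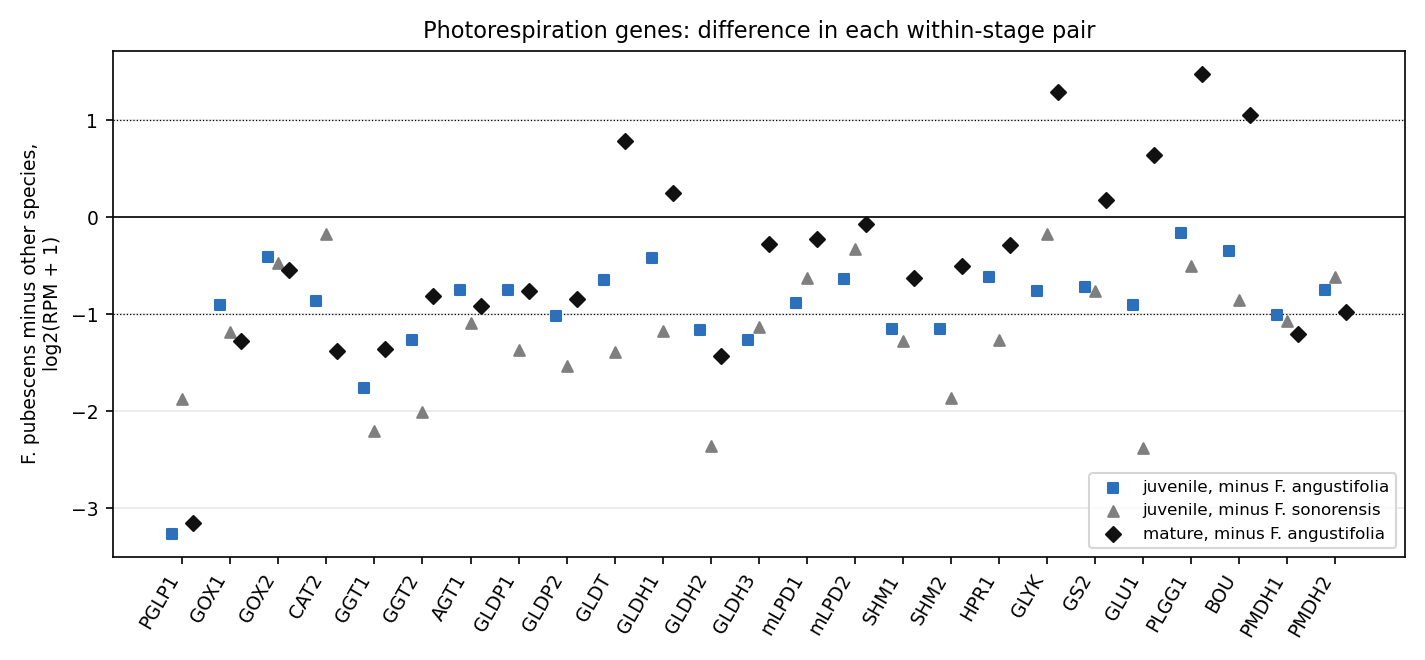
Difference of F. pubescens minus the other species on the log2(RPM + 1) scale for 25 photorespiration loci, with squares for F. angustifolia juvenile, triangles for F. sonorensis juvenile and diamonds for F. angustifolia mature, and dotted lines at 2-fold. All 25 squares and all 25 triangles lie below 0, and 18 of 25 diamonds do.

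In the Calvin-Benson cycle 17 of 23 loci were below both other species in juvenile leaves, against 25.9% of all loci. In mature leaves 13 were above F. angustifolia, against 48.3%, and 15 with TMM, against 7462 of 14275 loci. Of the 23, 1 was 2-fold lower in every pair, against 1.59% of all loci (2 without F. sonorensis, against 601 of 14306 loci). This was CP12-1, which encodes a small protein that ties phosphoribulokinase and glyceraldehyde phosphate dehydrogenase into an inactive complex in the dark. CP12-1 was at 194 RPM in F. pubescens juvenile, 1304 in F. angustifolia and 518 in F. sonorensis, and at 571 RPM in F. pubescens mature against 2245 in F. angustifolia. Both F. pubescens values were the lowest of their stage among all Flaveria libraries, and the difference over both stages was −1.83 ± 0.57 (SE, limma adjusted p = 0.592). CP12-2 was at 40.7, 288 and 57.4 RPM in the juvenile libraries of F. pubescens, F. angustifolia and F. sonorensis, and at 116 RPM in F. pubescens mature against 485 in F. angustifolia. PRK, the phosphoribulokinase, was at 1817, 4109 and 3527 RPM in those juvenile libraries and at 4688 RPM in F. pubescens mature against 5831 in F. angustifolia. The 4 RBCS loci, for the small subunit of Rubisco, summed to 57333 RPM in F. pubescens juvenile, 65273 in F. angustifolia and 75414 in F. sonorensis, and to 69677 RPM in F. pubescens mature against 34051 in F. angustifolia. The mature sums were 63877 to 73422 RPM in C3, 27542 in C4-like and 8691 to 25203 in C4. F. pubescens mature was thus within the C3 range, and F. angustifolia mature below it.

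Other metabolic lists, among them starch and sucrose and sulfate assimilation, also had different orders at the 2 stages. Of 22 starch and sucrose loci 18 were below both other species in juvenile leaves and 15 above F. angustifolia in mature leaves, and of 7 sulfate assimilation loci the counts were 6 and 7, against 25.9% below both and 48.3% above among all loci. BAM1, a plastid beta-amylase, was lower throughout, at 64.4 RPM in F. pubescens juvenile, 194 in F. angustifolia and 236 in F. sonorensis, and at 273 RPM in F. pubescens mature against 680 in F. angustifolia. KAS2, a plastid fatty acid condensing enzyme, was at 66.8 and 132 RPM in F. pubescens juvenile and mature, against 146 in F. angustifolia juvenile, 283 in F. sonorensis juvenile and 426 in F. angustifolia mature, and was lowest of all libraries at both stages. PGRL1B, of the cyclic electron flow around photosystem I, was at 96.0 RPM in F. pubescens juvenile, 198 in F. angustifolia and 220 in F. sonorensis, and at 252 RPM in F. pubescens mature against 624 in F. angustifolia. PSBX, a small photosystem II subunit, was instead higher, at 182, 26.7 and 41.0 RPM in the juvenile libraries of the 3 species in that order and at 258 RPM in F. pubescens mature against 19.8 in F. angustifolia. For PSBX F. pubescens lay within the range of the C3, C4-like and C4 libraries, 72.1 to 747 RPM in juvenile and 108 to 1061 RPM in mature leaves. It was the other C3-C4 libraries that were low. BAM1, KAS2, PGRL1B and PSBX were each the only locus of their list that was 2-fold apart in every pair. Those lists had 22, 12, 20 and 21 loci passing the filter, and 4.15% of all loci were apart. At any size, 4 of the 12 plastid fatty acid loci were higher in every pair and 2 lower, against 25.0% and 18.0% of all loci.

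**Figure D4:**
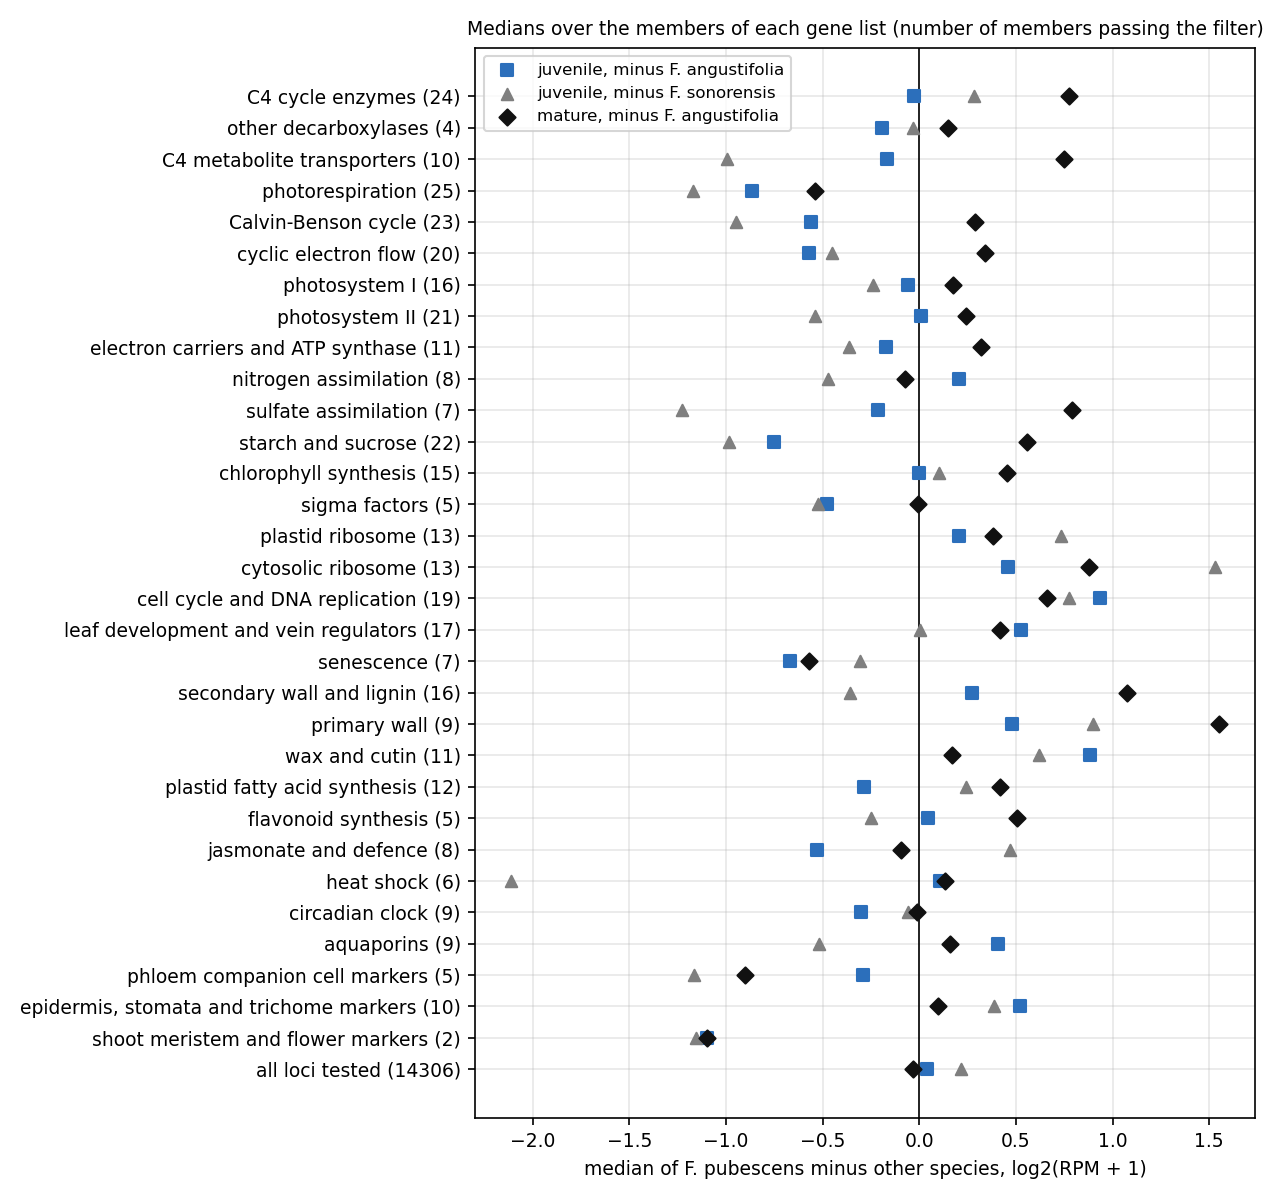
Median difference of F. pubescens minus the other species, log2(RPM + 1), over the members of each gene list that passed the filter on low values (number in brackets), with squares for F. angustifolia juvenile, triangles for F. sonorensis juvenile and diamonds for F. angustifolia mature. The C4 cycle list lies at −0.03, 0.28 and 0.78, the photorespiration list at −0.87, −1.17 and −0.54, and all loci at 0.04, 0.22 and −0.03.

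Cell cycle and ribosome transcripts differed along with the above. Of 20 cell cycle and DNA replication loci listed, 19 passed the filter. In F. pubescens juvenile 18 of these were above both other species and none below both, against 38.5% and 25.9% of all loci. With TMM 16 were above both and none below both, against 4325 and 4732 of 14275 loci. The 20 cell cycle loci summed to 956 RPM in F. pubescens juvenile, 416 in F. angustifolia juvenile and 486 in F. sonorensis juvenile. In mature leaves, however, the sums were 59.7 RPM in F. pubescens and 59.8 in F. angustifolia. MCM7, a subunit of the replicative helicase, was 2-fold higher in every pair, at 59.2, 16.5 and 18.7 RPM in the juvenile libraries of F. pubescens, F. angustifolia and F. sonorensis. In mature leaves it was at 1.68 RPM (12 reads) in F. pubescens against 0.323 (2 reads) in F. angustifolia. Their 95% Wilson counting intervals, 0.959 to 2.93 and 0.0885 to 1.18 RPM, overlapped. With a pseudocount of 5 RPM 0 cell cycle loci were 2-fold higher in every pair. The 13 cytosolic ribosome loci summed to 10836 RPM in F. pubescens juvenile, 8352 in F. angustifolia juvenile and 3584 in F. sonorensis juvenile, and to 2970 RPM in F. pubescens mature against 1741 in F. angustifolia mature. The 11 senescence loci summed to 159 RPM in F. pubescens juvenile, 235 in F. angustifolia juvenile and 315 in F. sonorensis juvenile, and to 352 RPM in F. pubescens mature against 463 in F. angustifolia mature. The 5 phloem companion cell markers summed to 137 RPM in F. pubescens juvenile, 182 in F. angustifolia and 332 in F. sonorensis, and to 283 RPM in F. pubescens mature against 578 in F. angustifolia. The shoot meristem gene STM was at 0 in all 3 juvenile libraries. The part of these differences in the lower photorespiratory and Calvin-Benson levels of F. pubescens juvenile was not tested.

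Most primary wall transcripts were higher in F. pubescens than in the other C3-C4 libraries of the same stage. All 9 primary wall loci were above both other species in juvenile leaves, against 38.5% of all loci, and 6 with TMM, against 4325 of 14275 loci. In mature leaves 8 of 9 were above F. angustifolia, against 48.3% of all loci. Expansins, which loosen the growing wall, supplied the 3 that were 2-fold higher in every pair, against 2.56% of all loci. The number was 1 with TMM and 3 without F. sonorensis, where 291 and 670 of all loci were 2-fold higher. EXPA5 was at 275 RPM in F. pubescens juvenile, 50.9 in F. angustifolia and 58.9 in F. sonorensis, and at 56.4 RPM in F. pubescens mature against 8.39 in F. angustifolia. EXPA4 was at 246, 81.1 and 117 RPM in the juvenile libraries of the 3 species in that order and at 24.2 RPM in F. pubescens mature against 6.61 in F. angustifolia. EXPA8 was at 486, 219 and 215 RPM in those juvenile libraries and at 187 RPM in F. pubescens mature against 34.2 in F. angustifolia. F. angustifolia mature was the lowest of all mature libraries for each of these expansins. F. pubescens mature lay within the range of the others, which reached 151 RPM for EXPA4, 93.2 for EXPA5 and 590 for EXPA8. The expansin differences stood beside the cell cycle sums given above. The 10 epidermis, stomata and trichome markers summed to 326 RPM in F. pubescens juvenile, 143 in F. angustifolia and 205 in F. sonorensis. PDF1 alone made up 156, 20.6 and 71.3 RPM of these sums. In juvenile leaves 5 of the 10 were above both other species and 1 below both, against 38.5% and 25.9% of all loci. The part of the cell cycle and epidermis levels in the expansin differences was not tested.

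Of 11 wax and cutin loci that passed the filter, of 12 listed, 6 were higher in every pair and none lower, against 25.0% and 18.0% of all loci. These shares are without TMM, and with TMM 4 were higher. KCS1 and CER3 were 2-fold higher in every pair, or 2 of 11 against 2.56% of all loci. Without F. sonorensis there were 4, where 670 of all loci were 2-fold higher. KCS1, which elongates very long chain fatty acids, was at 178 RPM in F. pubescens juvenile, 38.5 in F. angustifolia and 48.8 in F. sonorensis, and at 166 RPM in F. pubescens mature against 50.7 in F. angustifolia. CER3, needed for wax alkanes, was at 72.8, 18.1 and 19.2 RPM in the juvenile libraries and at 20.7 RPM in F. pubescens mature against 2.58 in F. angustifolia. PDF1, an epidermis marker, was at 156 RPM in F. pubescens juvenile, 20.6 in F. angustifolia and 71.3 in F. sonorensis, and at 1.82 RPM (13 reads) in F. pubescens mature against 0.161 (1 read) in F. angustifolia.

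Some loci of other functions were above every other Flaveria library of their stage. AOS, allene oxide synthase of the jasmonate pathway, was at 471 RPM in F. pubescens juvenile, 55.7 in F. angustifolia and 15.5 in F. sonorensis, and at 574 RPM in F. pubescens mature against 20.6 in F. angustifolia. Its difference over both stages was 4.29 ± 1.33 (SE, limma adjusted p = 0.574), and F. cronquistii mature, a C3 library, reached 514 RPM. TIP1;2, a vacuolar water channel, was at 2258 RPM in F. pubescens juvenile, 921 in F. angustifolia and 814 in F. sonorensis, and at 1382 RPM in F. pubescens mature against 613 in F. angustifolia. AOS was the only 1 of 8 jasmonate and defence loci that was 2-fold apart in every pair. Likewise TIP1;2 was the only 1 of 9 aquaporin loci, and 4.15% of all loci were apart. PRPS13, a protein of the plastid ribosome, was at 2284 RPM in F. pubescens juvenile, 692 in F. angustifolia and 525 in F. sonorensis, and at 1319 RPM in F. pubescens mature against 144 in F. angustifolia. In the other 16 libraries PRPS13 did not exceed 856 RPM in juvenile or 344 RPM in mature leaves. The difference over both stages was 2.42 ± 0.60 (SE, limma adjusted p = 0.251) and passed in edgeR's quasi-likelihood test (adjusted p = 0.0495). Of the 13 plastid ribosome loci it was the only one 2-fold apart in every pair, against 4.15% of all loci. Without F. sonorensis 2 were apart, and 1 more was lower with TMM.

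**Figure D5:**
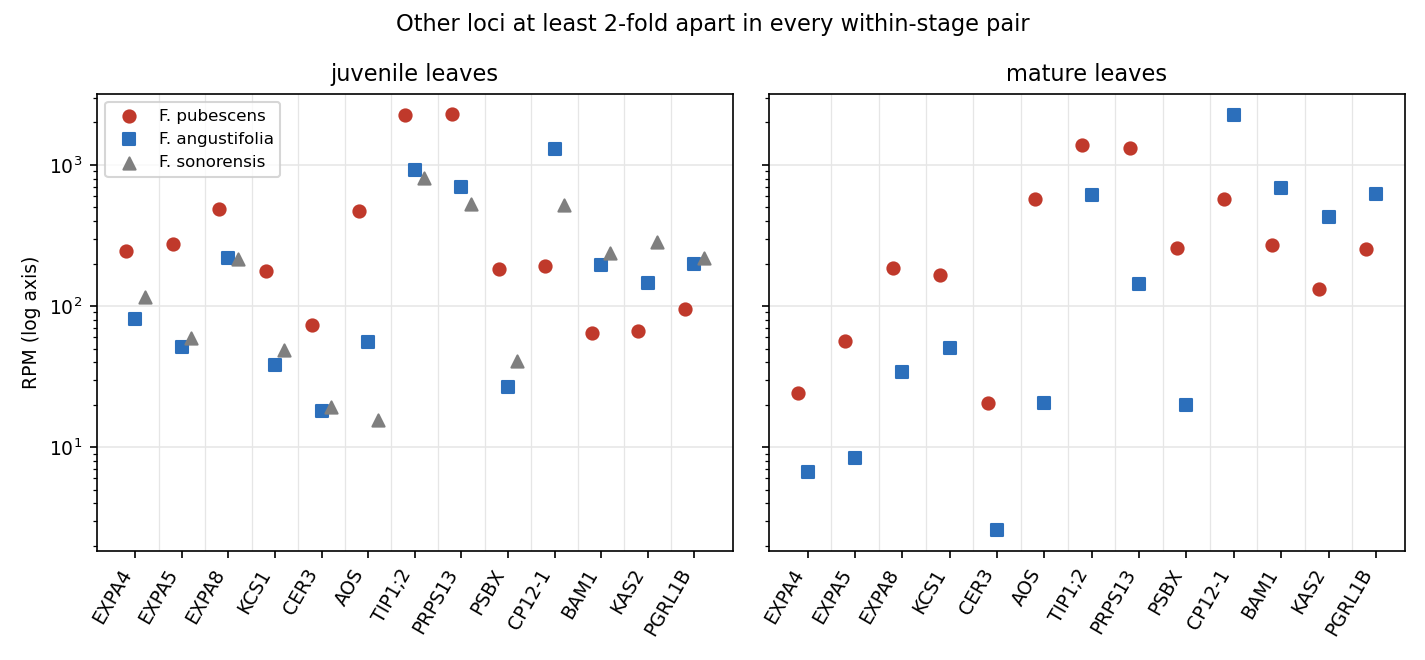
RPM (log axis) of 13 loci outside the C4 and photorespiration lists that were at least 2-fold apart in every within-stage pair, in juvenile leaves (left) and mature leaves (right), 1 point per library with the symbols of the species as in the legend. The first 9 loci, EXPA4 to PSBX, are highest in F. pubescens in both panels, and the last 4, CP12-1 to PGRL1B, are lowest there.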

How the data were processed

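The authors deposited 1 table of RPM, reads assigned to Arabidopsis loci scaled to 1e+06 per library, with 20551 loci and 18 Flaveria columns. Per the submitters' processing notes, the Arabidopsis build was TAIR10. The aligner, and how reads with more than one match were counted, is not given in the sources used here. Members of a gene family are therefore uncertain. Divided by what 1 read is worth, 100% of values came out whole (within 0.001), so reads were recovered, 5399898 to 9154492 per library.

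From these, limma 3.58.1 in R 4.3.3 was fitted to log2(RPM + 1) with an intensity trend, after removing loci that averaged under 2 RPM over the fitted libraries. Groups were F. pubescens, the other C3-C4 species (F. angustifolia and F. sonorensis), C3 (F. pringlei, F. cronquistii), C4-like (F. vaginata, F. palmeri, F. brownii) and C4 (F. trinervia, F. kochiana, F. bidentis). The juvenile fit used 10 libraries and the mature fit 8. The fit over both stages used all 18, with stage as covariate and species as random block (statmod 1.5.0, correlation 0.489), so its p-values rest partly on libraries. Stage dependence was tested on mature minus juvenile differences of 7 species. P-values are two-sided and adjusted by the Benjamini-Hochberg method over all loci of a fit. The 2-fold description used the 5 C3-C4 libraries and has no test. The fits were tested on simulated data. Alternatives used TMM and the quasi-likelihood test of edgeR 4.0.16. Summaries and plots used Python 3.11.15, pandas 2.3.3, numpy 2.4.6, scipy 1.17.1 and matplotlib 3.10.9.

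The species compared, the 31 gene lists and the tests were chosen with earlier results of these data known. Symbols and roles come from textbook knowledge of Arabidopsis, not from the files. Any member of the C4, decarboxylase, transporter, photorespiration and Calvin-Benson lists could be named. In other lists, members that passed or were 2-fold apart in every pair could be named, and outside the lists the first 2 by both-stages difference in each direction.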

Additional observations from a re-analysis of the deposited data

How the results depend on the processing

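No paired analysis was possible because the labels give no replicate numbers that pair F. pubescens with the other species, and each species and stage had 1 library. The stages of a species were matched by species instead, as a random block over both stages and as differences for stage dependence. The counts of loci that passed in limma were small and moved with the settings. For juvenile leaves, where 0 were higher and 1 lower, a pseudocount of 0.1 RPM gave 4 lower, one of 5 RPM gave 4 higher and 0 lower, no filter on low values gave 10 higher, and edgeR and a spread taken from the C3 and C3-C4 libraries gave 0 lower. Leaving out each other library gave 0 to 1 higher and 0 to 1 lower, and the single call was lost without either F. angustifolia or F. sonorensis. For mature leaves, with 2 lower, a pseudocount of 5 RPM, no filter and edgeR each gave 0 lower. Leaving out 1 C3 or C4 library gave 0 to 4 lower (4 without F. bidentis, and 0 without any of F. cronquistii, F. pringlei, F. kochiana or F. trinervia) and 0 higher throughout. Over both stages, with 2 higher and 2 lower, a pseudocount of 0.1 RPM gave 12 lower, one of 5 RPM gave 13 higher, no filter gave 23 higher and 4 lower, TMM gave 1 and 1, edgeR gave 23 higher and 15 lower, 1 value per species gave 0 higher and 1 lower, and the 5 C3-C4 libraries alone gave 5 higher. Leaving out a C3-C4 library gave 1 to 3 in each direction. The 2 higher and 2 lower loci were all among those that edgeR called. AT1G53625 had an adjusted p of 0.0700 with 1 value per species, and AT3G26740 was the locus lower in that setting. AT2G01021 (adjusted p up to 0.370) and ATCG00800 (adjusted p up to 0.370) were lost in several settings. Stage dependence gave 0 in each setting run. The cause of these shifts was not tested.

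The 366 higher and 228 lower loci that were 2-fold apart in every pair became 169 and 89 with a pseudocount of 5 RPM, 343 lower with 0.1 RPM, 210 and 134 with a mean of at least 10 RPM, and 63 and 36 at 4-fold. Leaving out 1 of the other libraries, which removes a condition, gave 651 to 750 higher and 367 to 601 lower. The settings without an F. angustifolia library were chosen after seeing the data. Without F. angustifolia mature, 9 of 25 photorespiration loci were 2-fold lower in both juvenile pairs, against 3.16% of all loci. Named loci that passed or were 2-fold apart in every pair, other than AT5G25120, were refitted together with PPDK and PPC1 under these settings, and none of their differences changed direction. AT5G25120 and loci given by their levels alone were not refitted. Depth limits loci near 0 most, as the counting interval of AT2G23620 shows.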

Other observations

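Loci encoded in the organelles were lower in F. pubescens more often than nuclear loci. Of 72 chloroplast loci passing the filter 14 (19.4%) were 2-fold lower in every pair and 2 higher, and of 21 mitochondrial loci 4 (19.0%) were lower and 0 higher, against 1.48% lower and 2.56% higher of 14213 nuclear loci. Chloroplast loci took 0.599% of reads in F. pubescens juvenile, 1.53% in F. angustifolia juvenile and 1.65% in F. sonorensis juvenile, but 1.05% in F. pubescens mature and 1.05% in F. angustifolia mature. Mitochondrial loci took 0.335% of reads in F. pubescens juvenile, 0.429% in F. angustifolia juvenile and 0.639% in F. sonorensis juvenile, and 0.166% in F. pubescens mature against 0.224% in F. angustifolia mature.

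Lignin and secondary wall loci were higher in mature F. pubescens. Of 16 that passed the filter 13 were above F. angustifolia, against 48.3% of all loci, with a median difference of 1.07. In juvenile leaves 4 were above both other species and 4 below both, against 38.5% and 25.9% of all loci. No member was 2-fold apart in every pair.

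Across loci, which are not independent replicates, F. pubescens juvenile was closest to F. angustifolia juvenile (Spearman 0.890) and F. brownii juvenile (0.878), and less close to F. sonorensis juvenile (0.845). F. pubescens mature was closest to F. pubescens juvenile (0.860), then to the C3 libraries F. cronquistii mature (0.856) and F. pringlei mature (0.853), and F. angustifolia mature followed at 0.847.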
